A study of Homo sapiens with 8 samples.

Results

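The zinc finger genes of chromosome 19 whose symbols begin with ZNF and a digit carried 250 features that differed between decitabine and DMSO in an m6A comparison of HL-60 cells. They were chosen by gene name and chromosome, with earlier results of these data known. They belong to 138 genes, out of 4626 listed features under 3114 gene names. HL-60 is an established human promyelocytic leukaemia line, labelled wild type, and decitabine is a deoxycytidine analogue that depletes DNA methyltransferases. The treated cultures received 100 nM decitabine at 0, 24 and 48 hours and the control cultures DMSO, with RNA taken from both at 72 hours. Each treatment had 2 cultures, which the labels call duplicates and do not describe as independent. Each culture gave an m6A immunoprecipitate and an input library, 8 libraries in all. The values come from the authors' deposited table, which gives 1 log ratio and 1 p-value per feature over all libraries and lists only features past a threshold. Values for single libraries are not in it, so the ratios below have no error, the depth behind them is unknown, and no difference between groups of features was tested. A difference in m6A and a difference in RNA level cannot be told apart here, because no source used here gives the correction for input. The numerator of the ratio is not named either. Positive and negative are therefore the signs of that table and are not assigned to an arm, and sizes are given as the larger arm over the smaller.

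Most ZNF genes of chromosome 19 encode long arrays of C2H2 zinc fingers, which bind DNA, and many of the proteins carry an amino-terminal KRAB domain. KRAB recruits the co-repressor TRIM28 and through it the H3K9 methyltransferase SETDB1, and many of these proteins silence transposable elements. The genes arose by repeated tandem duplication and lie in clusters of related copies on both arms and beside the centromere. Their fingers are usually encoded by a single long last exon, and m6A, an abundant internal modification of mRNA, is known to be enriched in long exons and near stop codons.

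All 138 names matched a RefSeq symbol on chromosome 19. Of the 250 protein-coding genes that RefSeq lists there under such names, 132 had a listed feature (52.8%), beside 13.3% of all 20056 RefSeq protein-coding genes matched in the same way by symbol and chromosome. Listed too were 6 of 20 pseudogenes and 0 of 34 non-coding RNA genes. The listed shares of pseudogenes and of non-coding RNA genes over all chromosomes were not taken. These counts therefore have no background and show neither enrichment nor depletion. For a gene that is not listed, a lack of m6A signal, of reads and of a difference cannot be told apart. All but 1 of the features lay inside the RefSeq span of the gene, the exception being that of the pseudogene ZNF826P. Features of 50 nt numbered 240, the other 10 covered 99 or 100 nt, and 6 were split over several blocks. The features lay toward the 3' ends of the genes, at a median of 3091 nt from the end of the span (quartiles 1934 and 5025). Of the 249 inside a span, 190 (76.3%) fell in the last 25% of it, beside 57.2% of 3991 other listed features and 59.6% of those of ZNF genes on other chromosomes. The share was 90.0% in the block beside the centromere, 65.5% in the distal p arm and 74.1% in the q arm. The median distances to the end were 3178.5, 3474 and 2980 nt in the same order, so the block's features were not the nearest in nt. By sign, the share was 75.9% for positive and 76.9% for negative features. Exons and UTRs were not annotated here.

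Positive features were more frequent than negative ones by about the margin seen in the whole table, and they were larger. Of the 250 features, 146 were positive and 104 negative, a positive share of 58.4% (95% Wilson interval 52.2 to 64.3, for counting error over features only), beside a background of 56.3% over all listed features. With each gene represented by its feature of smallest p-value, called the leading feature, 87 genes were positive and 51 negative (63.0%, beside 58.9% of all listed genes). The positive features had their median at 54-fold (quartiles 5.00 and 140.6), against 8.84-fold over the other listed positive features. The negative ones had theirs at 4.34-fold (quartiles 2.64 and 23.1), against 3.94-fold over the others. At 10-fold or above stood 102 of the 146 positive features (69.9%, beside 50.1% of all listed positive features) and 28 of the 104 negative features (26.9%, beside 23.5%). Between 10-fold and 15-fold lay 0 positive features and 1 negative feature, beside 49 of 2604 positive and 90 of 2022 negative listed features. The positive ratios thus formed a low and a high group, as they did in the whole table.

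**Figure D1:**
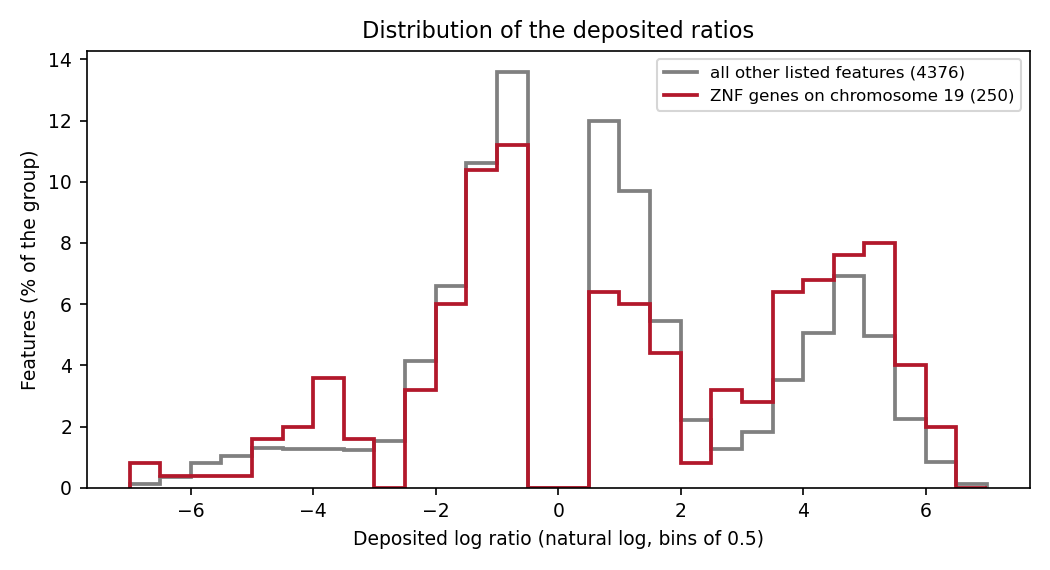
Share of features (percent of each group) by deposited log ratio (natural log, bins of 0.5) for the 250 features of ZNF genes on chromosome 19 and the 4376 other listed features. The positive features form a low and a high group in both. At 10-fold or more are 102 of 146 for the ZNF genes and 1203 of 2458 for the others.

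The high group consisted almost wholly of ratios that are exact multiples of 0.5, to a relative tolerance of 1e-08, called stepped ratios here. A ratio of whole numbers takes such a value when its denominator is 1 or 2, and whether that is how they arose was not tested, since the table holds no counts. Of the 130 features of 10-fold or more, 110 were stepped, and of the 120 below 10-fold, 1 was, a negative 5-fold feature of ZNF83. All 96 stepped positive features were thus among the 102 positive ones of 10-fold or more. The negative features had 15 stepped ratios and 28 of 10-fold or more. Over the whole table, 1151 positive features were stepped and 1305 were of 10-fold or more. For its negative features these counts were 264 and 476. Stepped ratios made up 44.4% of the features of these genes (111), beside 30.6% of all listed features. By sign, 96 positive features (65.8%) and 15 negative ones (14.4%) were stepped, beside 44.2% and 13.1% in the whole table. The 139 features that were not stepped had the opposite balance, 50 positive and 89 negative (36.0% positive), beside 45.3% positive over all such listed features. Their median sizes were 3.86-fold for the positive and 3.58-fold for the negative features. Among the ZNF genes of the other chromosomes (189 features of 110 genes), 63.0% of features were positive and 24.9% stepped, and 55.6% of those not stepped were positive.

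**Figure D2:**
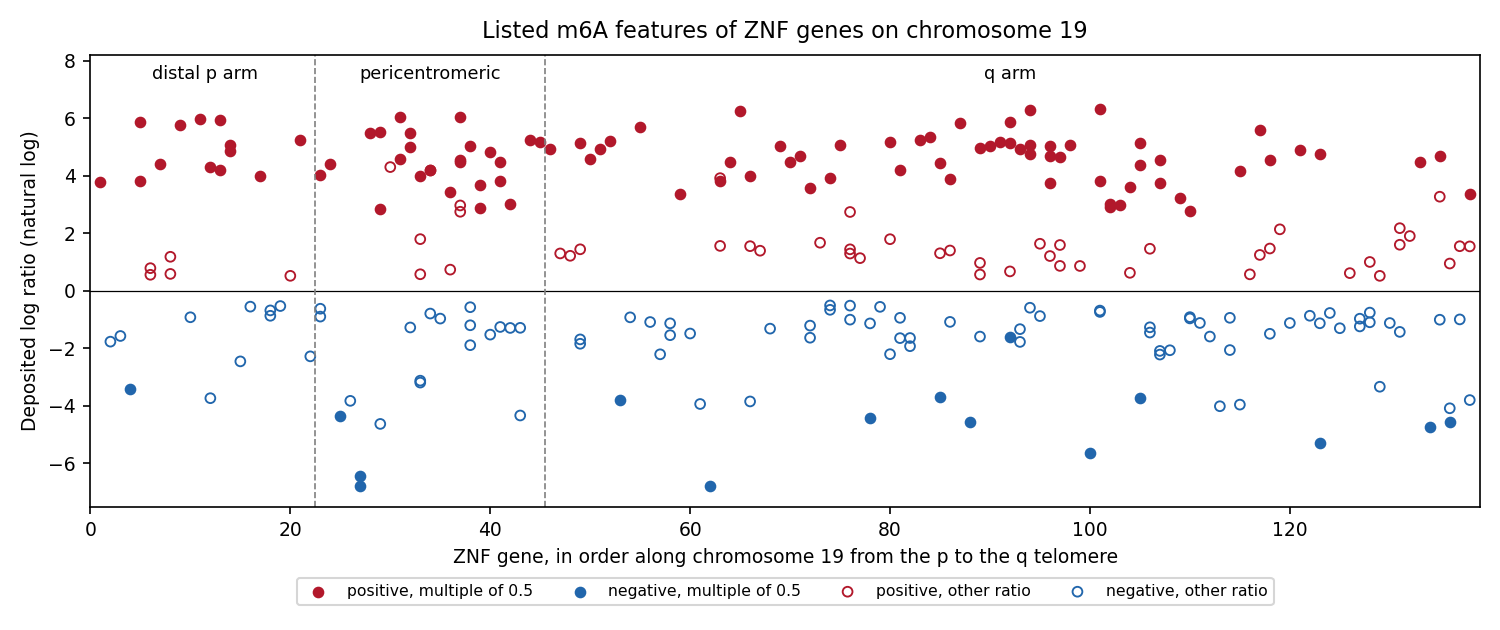
Deposited log ratio (natural log) of all 250 features against the order of the 138 genes along chromosome 19, with filled points for multiples of 0.5 and open points for other ratios. The filled points lie mostly high on the positive side, 96 of 111, and the open points mostly on the negative side, 89 of 139.

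The genes were divided into a distal p arm (below 19 Mb on hg38), a pericentromeric block (19 to 28 Mb) and the q arm (above 28 Mb). The distal p arm held 29 features of 22 genes, the pericentromeric block 51 features of 23 genes, and the q arm 170 features of 93 genes. The pericentromeric block had the most features per gene, 2.22 against 1.32 in the distal p arm and 1.83 in the q arm. Of its RefSeq protein-coding ZNF genes 56.8% were listed, against 42.6% and 54.8%. The positive shares of the features were 62.1%, 60.8% and 57.1% from p to q. By leading feature the pericentromeric block had 18 positive and 5 negative genes (78.3%), the distal p arm 13 and 9, and the q arm 56 and 37. The block also held the largest share of stepped ratios, 54.9% against 48.3% in the distal p arm and 40.6% in the q arm. Among ratios that were not stepped, negative features outnumbered positive ones in each segment, with 10 against 5 in the distal p arm, 17 against 6 in the pericentromeric block and 62 against 39 in the q arm.

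**Figure D3:**
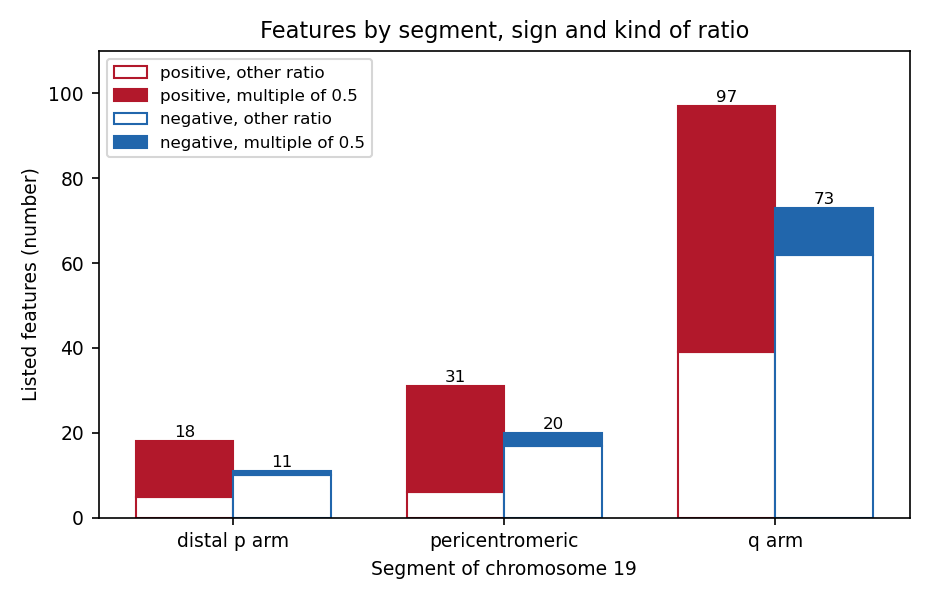
Number of listed features by segment of chromosome 19, with bars for positive and negative features divided into multiples of 0.5 (filled) and other ratios (open). The filled part is the larger part of the positive bar in each segment (13 of 18, 25 of 31 and 58 of 97) and the smaller part of each negative bar (1 of 11, 3 of 20 and 11 of 73).

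With a gap of over 1 Mb opening a new group, the features formed 14 groups along the chromosome. On the p arm, the group from ZNF317 to ZNF812P (9.16 to 9.69 Mb) had 8 positive and 2 negative features over 7 genes, and that from ZNF653 to ZNF791 (11.49 to 12.63 Mb) had 9 and 7 over 12 genes. The pericentromeric block was itself 1 group, from ZNF101 to ZNF254 (19.68 to 24.13 Mb). On the q arm, the group from ZNF146 to ZNF573 (36.24 to 37.74 Mb) had 8 positive and 9 negative features over 13 genes. The group from ZNF575 to ZNF229 (43.54 to 44.43 Mb) had 15 and 8 over 13 genes, 11 of them with a positive leading feature. The group from ZNF175 to ZNF331 (51.59 to 53.58 Mb) was the largest, with 44 positive and 26 negative features over 31 genes, and 52.9% of its ratios were stepped. The last group, from ZNF579 to ZNF324 (55.58 to 58.48 Mb), had 24 positive and 28 negative features over 30 genes, with 25% stepped. Among ratios that were not stepped, the former had 13 positive and 20 negative features and the latter 14 and 25. Neighbouring genes along the chromosome had the same leading sign in 85 of 137 pairs (62.0%), beside 52.9% of 3091 neighbouring pairs over all listed genes. Of the ZNF genes 63.0% lead with a positive feature, beside 58.9% of all listed genes. The longest run of one sign was 9 positive genes, from ZNF675 across the centromere to ZNF850.

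The leading genes of the segments by p-value were ZNF440, ZNF429 and ZNF225, and the pericentromeric negative feature of smallest p-value belonged to ZNF93. Sequences before the starts of these genes are shown because decitabine acts on DNA methylation, which sits on CG dinucleotides. ZNF486 is added as a close copy of ZNF93 whose leading feature has the other sign, and this pair was chosen after its values were seen. Each sequence is the 250 bases before the RefSeq start (GRCh38.p14, plus strand, 5' to 3'), with CG dinucleotides in capitals. They lie at chr19:11814023-11814272 for ZNF440, chr19:21505352-21505601 for ZNF429, chr19:44113149-44113398 for ZNF225, chr19:19900696-19900945 for ZNF93 and chr19:20166964-20167213 for ZNF486.
ZNF440: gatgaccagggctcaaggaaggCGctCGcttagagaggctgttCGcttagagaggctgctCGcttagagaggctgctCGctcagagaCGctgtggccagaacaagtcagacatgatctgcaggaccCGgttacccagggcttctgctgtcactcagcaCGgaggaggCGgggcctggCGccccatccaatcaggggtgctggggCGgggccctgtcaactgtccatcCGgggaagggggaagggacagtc
ZNF429: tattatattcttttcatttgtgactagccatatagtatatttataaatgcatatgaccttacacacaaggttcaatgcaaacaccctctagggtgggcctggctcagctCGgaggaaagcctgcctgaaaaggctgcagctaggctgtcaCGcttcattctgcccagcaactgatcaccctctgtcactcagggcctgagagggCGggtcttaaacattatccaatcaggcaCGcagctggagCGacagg
ZNF225: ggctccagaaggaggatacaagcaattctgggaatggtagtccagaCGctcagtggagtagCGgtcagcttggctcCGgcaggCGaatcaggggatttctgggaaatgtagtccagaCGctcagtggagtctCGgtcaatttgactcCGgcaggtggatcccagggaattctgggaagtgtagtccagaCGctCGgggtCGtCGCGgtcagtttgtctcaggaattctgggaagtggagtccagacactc
ZNF93: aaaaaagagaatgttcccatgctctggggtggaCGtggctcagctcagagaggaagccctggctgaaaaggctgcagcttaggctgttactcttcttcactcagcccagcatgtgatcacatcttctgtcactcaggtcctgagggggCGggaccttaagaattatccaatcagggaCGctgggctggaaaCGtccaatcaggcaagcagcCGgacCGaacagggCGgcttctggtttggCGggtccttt
ZNF486: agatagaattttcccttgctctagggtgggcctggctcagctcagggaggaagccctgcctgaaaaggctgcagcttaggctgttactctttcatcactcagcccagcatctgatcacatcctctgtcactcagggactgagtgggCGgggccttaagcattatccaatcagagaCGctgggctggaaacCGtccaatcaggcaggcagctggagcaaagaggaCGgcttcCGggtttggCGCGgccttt

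These stretches hold 12 CG dinucleotides in ZNF440, 5 in ZNF429, 12 in ZNF225, 8 in ZNF93 and 7 in ZNF486. RefSeq windows of 300 bases (250 before and 50 after the start) were matched for 117 of the 138 genes, with 138 starts, since some genes have several. The median window of the listed genes held 20 CG dinucleotides (quartiles 14 and 25), against 14 (4 and 28) over all 35116 RefSeq windows. The 169 windows of chromosome 19 ZNF genes that were not listed also had a median of 20 (16 and 27). The pericentromeric block stood lowest, with a median of 10 and a range of 8 to 18 over 18 windows, against 18.5 in the distal p arm and 22 in the q arm. Windows of genes with a positive and a negative leading feature had medians of 20 and 21. The letters GGGCGG, searched on both strands, occurred in 59.4% of the listed genes' windows, 68% of those of chromosome 19 ZNF genes that were not listed and 45% of all RefSeq windows. AGGCCT, which reads the same on both strands, occurred in 18.8%, 20.7% and 10.9%. By sign of the leading feature, GGGCGG was in 66.2% of the positive and 50% of the negative genes' windows. AGGCCT was in 25% (20 of 80) and 10.3% (6 of 58). These windows belong to 73 and 44 genes, and a gene with several starts counts several times. Close copies count separately too. ZNF701 and ZNF845 (positive leads, windows 86% identical) both hold AGGCCT, as do ZNF765 and ZNF761 (negative leads, 83%). ZNF331, with a negative lead, has several starts, all without GGGCGG. By segment from p to q, GGGCGG was in 86.4%, 66.7% and 52% of the windows, and AGGCCT in 4.55%, 11.1% and 23.5%. A match of letters is a description of the sequence only, and no DNA methylation was analysed here.

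**Figure D4:**
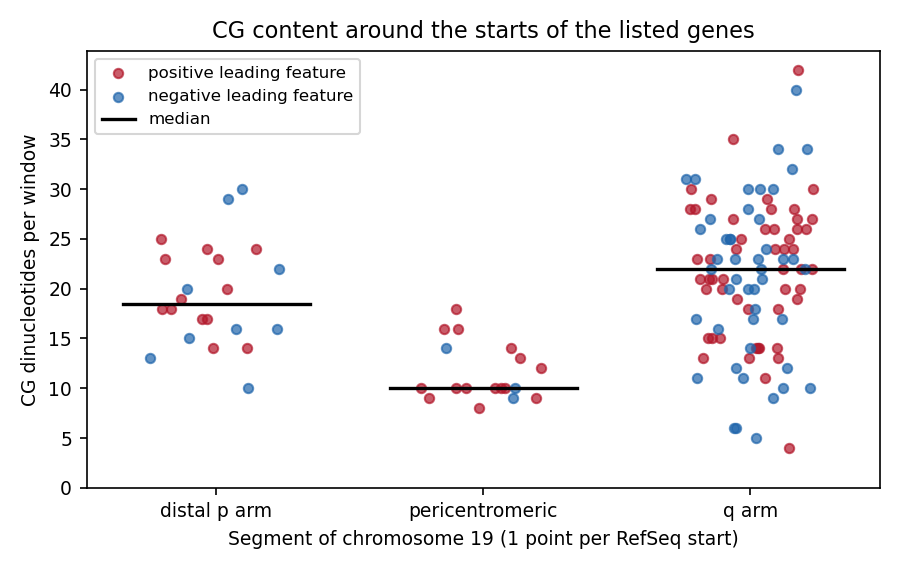
Number of CG dinucleotides in the 300-base window around each RefSeq start of a listed gene, by segment, coloured by the sign of the gene's leading feature, with the median as a line. The pericentromeric points lie between 8 and 18, and the medians are 18.5, 10 and 22 from p to q.

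Copies with similar windows did not always lead with the same sign. Over 6670 pairs of the 116 genes compared, the median identity of the windows was 51.3%, and 65 pairs among 24 genes reached 80%, all within the same segment. The leading signs were the same in 43 of these pairs (66.2%), positive in 42 of them, and opposite in 22, beside 52.5% of the same sign over all 6670 pairs. Of the 65 pairs, 42 lay in the pericentromeric block, where 78.3% of genes lead with a positive feature. Pairs share genes and are not independent. The most alike windows were those of ZNF587B and ZNF814 (91.3%), which lead in the authors' deposited table with a negative 28.1-fold (p = 6.46e-05) and a positive 8.82-fold feature (p = 4e-07). ZNF714 and ZNF431 followed (91%), both with a positive leading feature. ZNF93 had 88% identity with ZNF486 and 85% with ZNF90, which both lead with a positive feature.

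On the distal p arm the largest leading ratios were positive and stepped. ZNF440 had positive 373-fold and 67.5-fold features according to the authors' deposited table, the larger at chr19:11832636-11832685 with p = 1.61e-08. ZNF426 likewise had positive 358-fold and 45-fold features according to the authors' deposited table, the larger with p = 6.06e-08. Both features of ZNF700 were positive in the authors' deposited table, positive 160-fold (p = 1.95e-08) and positive 127-fold (p = 3e-06). For ZNF823, the authors' deposited table gives a single positive 398-fold feature (p = 0.000245). The negative features of this arm were smaller, up to 41.8-fold. The smallest p-value among the genes with a negative lead was that of ZNF333, negative 9.77-fold at chr19:14718397-14718446 (p = 8.33e-05) in the authors' deposited table. After it came ZNF799 with negative 1.98-fold and 2.38-fold features and ZNF317 with a negative 4.81-fold feature according to the authors' deposited table. ZNF441 was the single gene of the arm with both signs, positive 74-fold against negative 41.8-fold at starts 200 nt apart in the authors' deposited table.

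In the pericentromeric block, ZNF429 had the smallest p-value of all 250 features, a positive 426-fold feature of 99 nt at chr19:21537061-21537159 (p = 1.12e-15) in the authors' deposited table. Its other 4 features according to the authors' deposited table were positive 95-fold, 15.6-fold, 19.4-fold and 89-fold, and it was the only one of the 3 genes with 5 features to hold a single sign. ZNF90 had a positive 243-fold feature (p = 7.83e-09) and ZNF737 positive 425-fold and 97-fold features according to the authors' deposited table, the larger with p = 9.11e-08. ZNF93, a KRAB protein that binds and represses LINE-1 elements, had negative features alone. In the authors' deposited table they were negative 887-fold at chr19:19933627-19933676 (p = 1.44e-05) and negative 636-fold at chr19:19934225-19934274 (p = 0.000567), both stepped. They were the largest negative ratios of the 250 after the feature of ZNF574. The listed genes next to ZNF93 on the p side were also negative, ZNF253 with negative 45.9-fold and ZNF506 with negative 77.5-fold according to the authors' deposited table. The other negative leads, in the authors' deposited table, were those of ZNF724 (negative 3.62-fold, p = 0.000196, with a second of negative 76.3-fold) and ZNF708 (negative 2.63-fold, p = 0.000264).

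Genes with 3 or more features in this block mostly set large positive ratios beside smaller negative ones. ZNF714 changed sign 3 times along its transcript in the authors' deposited table, from positive 1.78-fold at the 5' side through negative 22.8-fold, positive 54-fold and positive 6.02-fold to negative 24.3-fold. ZNF486 held positive 17-fold and 250-fold against negative 102-fold according to the authors' deposited table, with the last 2 starting 199 nt apart. ZNF100 had positive 151.5-fold against negative 3.32-fold, 1.77-fold and 6.62-fold and ZNF430 positive 245-fold and 147.5-fold against negative 3.58-fold according to the authors' deposited table. ZNF431, with positive 67.5-fold and 65.5-fold against negative 2.21-fold, ZNF492, with positive 87.5-fold and 46-fold against negative 3.52-fold, and ZNF101, with positive 56.5-fold against negative 2.45-fold and 1.87-fold, had the same form in the authors' deposited table. Both signs also occurred within 1000 nt in ZNF98 (positive 126-fold against negative 4.59-fold) and the pseudogene ZNF849P (positive 20.5-fold against negative 3.64-fold) in the authors' deposited table.

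On the q arm, ZNF225 had the smallest p-value, for a positive 107-fold feature at chr19:44131227-44131276 (p = 2.96e-09) in the authors' deposited table. ZNF600 had positive 528-fold, 161-fold and 114.5-fold against negative 1.8-fold according to the authors' deposited table, the first at chr19:52766271-52766320 (p = 3.59e-08). ZNF610 was listed once, at positive 336-fold (p = 3.49e-08), and ZNF283 once, at positive 514-fold (p = 4.62e-08), in the authors' deposited table. ZNF160 held the largest positive ratio of the 250, positive 557-fold (p = 0.000131), in the authors' deposited table. It started 100 nt from a negative 1.99-fold feature, and the other two of ZNF160 were positive 45-fold against negative 2.09-fold according to the authors' deposited table. ZNF83 had positive 356-fold and 1.96-fold against negative 5-fold close together in the authors' deposited table, and a further feature of positive 171-fold lay 39923 nt away.

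The largest negative ratio of the 250, negative 894-fold (chr19:42079914-42079963, p = 0.00016), was the single feature of ZNF574 in the authors' deposited table. It was also the largest negative ratio of all 4626. The other large negative leads of the arm in the authors' deposited table were ZNF816 (negative 282-fold), ZNF773 (negative 201-fold), ZNF606 (negative 114-fold), ZNF578 (negative 97-fold) and ZNF544 (negative 96-fold), all stepped. The negative leads of smallest p-value had smaller ratios. In the authors' deposited table they were ZNF573 (negative 4.42-fold, p = 3.39e-06), ZNF234 (negative 3.36-fold, p = 6.09e-06) and the imprinted gene ZNF331 (negative 7.9-fold, p = 8.49e-06).

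Some q arm genes have known functions. ZNF808, which represses transposable elements in the developing pancreas, had positive 141-fold, 1.76-fold and 2.64-fold against negative 4.91-fold according to the authors' deposited table. ZNF611, which binds SVA retrotransposons, had positive 137-fold against negative 5.91-fold and 3.79-fold and ZNF765, which binds LINE-1, positive 4.31-fold against negative 4.27-fold and 3.56-fold according to the authors' deposited table. ZNF587 (negative 3.07-fold) and ZNF417 (positive 6.71-fold), which bind the endogenous retrovirus HERV-K, were listed once each in the authors' deposited table, with opposite signs. ZNF671, whose promoter is often methylated in tumours, had positive 2.72-fold against negative 2.99-fold and 2.14-fold according to the authors' deposited table. ZNF473, a factor of histone pre-mRNA processing, had a positive 3.11-fold feature, and ZNF350, a partner of BRCA1, a negative 1.75-fold feature according to the authors' deposited table. ZNF587, ZNF417, ZNF473 and ZNF350 were named for their functions after their values were seen.

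Genes with several features mostly held both signs. Of 62 such genes, 39 had positive and negative features (62.9%, beside 58.4% of all listed genes with several features), 15 had positive features alone and 8 negative features alone. Both signs occurred in 1 of 7 such genes in the distal p arm, 9 of 15 in the pericentromeric block and 29 of 40 in the q arm. Of these genes, 7, 7 and 12 had exactly 2 features, so the segments differ in features per gene. Genes with more features can more easily hold both signs, and the share over all listed genes with 3 or more features was not taken. Of the 36 genes with 3 or more features (122 features, 73 positive and 49 negative), 32 had both signs. The other 4 were wholly positive in the authors' deposited table: ZNF429, ZNF468 (positive 3.35-fold, 107-fold, 43-fold and 154-fold), ZNF526 (positive 4.76-fold, 50.2-fold and 46-fold) and ZNF888 (positive 4.91-fold, 106.5-fold and 2.38-fold). In 18 of the 39 genes with both signs, every positive feature was stepped and no negative one was. This count was not made over all listed genes, so it cannot be called particular to the ZNF genes. Among all listed features, 44.2% of the positive and 13.1% of the negative ones were stepped.

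**Figure D5:**
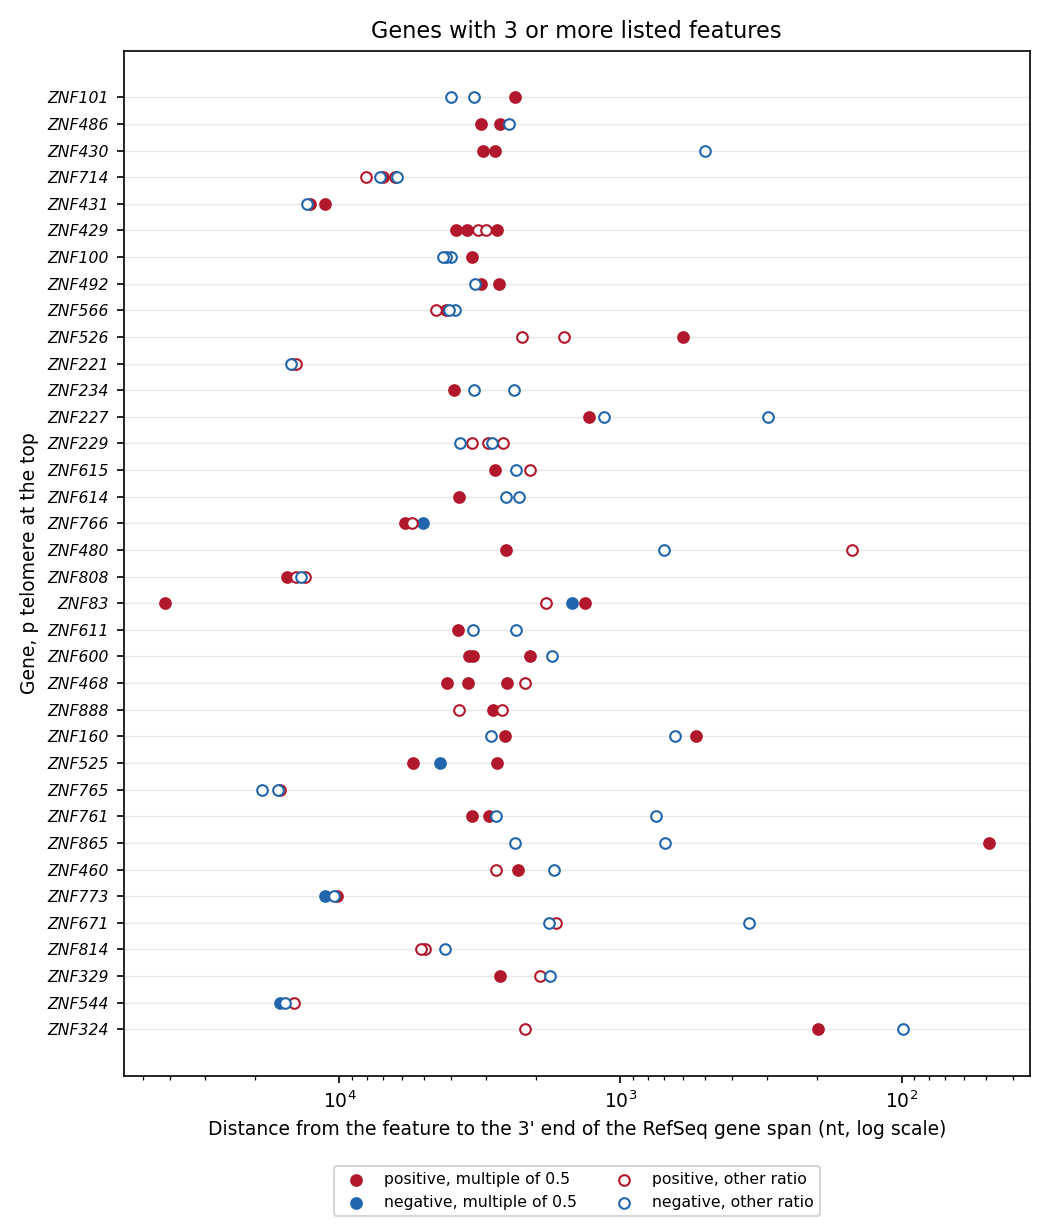
Distance from each feature to the 3' end of the RefSeq gene span (nt, log scale, 3' end to the right) for the 36 genes with 3 or more features, coloured by sign and filled for multiples of 0.5. Both colours occur in 32 of the genes, and ZNF429, ZNF526, ZNF468 and ZNF888 are wholly positive.

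Opposite signs could lie close together. Neighbouring features of a gene started a median of 473 nt apart, and 61 of 112 neighbouring pairs had the same sign (54.5%, beside 53.3% of 1502 pairs over all listed genes). Of the 29 pairs with starts at most 200 nt apart, 12 had the same sign and 17 opposite signs, in 16 genes. Between 200 and 1000 nt, 34 of 59 pairs had the same sign, and above 1000 nt 15 of 24. In all, 34 genes had opposite signs at neighbouring features within 1000 nt. Counts by distance were not made over all listed genes, so these cannot be called particular to the ZNF genes. At starts 100 nt apart, the authors' deposited table gives positive 29-fold against negative 44.7-fold for ZNF324 and positive 173-fold against negative 5.42-fold for ZNF566. At 149 or 150 nt, the authors' deposited table gives positive 51-fold against negative 1.66-fold for ZNF227, positive 26.3-fold against negative 2.73-fold for ZNF329, positive 42-fold against negative 8.09-fold for ZNF761 and positive 4.71-fold against negative 2.71-fold for ZNF8. The further features of these genes in the authors' deposited table were positive 4.68-fold for ZNF324, positive 4.23-fold against negative 6.31-fold for ZNF566, negative 1.94-fold for ZNF227, positive 109-fold for ZNF329 and positive 93-fold against negative 9.19-fold for ZNF761. ZNF221, which also had a positive 4.72-fold feature, went from negative 46.9-fold to positive 54-fold over 198 nt in the authors' deposited table. ZNF229, with 5 features and no stepped ratio, had positive 3.65-fold, 15.5-fold and 4.23-fold against negative 2.73-fold and 1.68-fold according to the authors' deposited table. In the genes listed with 2 features, both signs within 1000 nt were also seen for ZNF28 (positive 5.13-fold against negative 2.41-fold) and ZNF587B (positive 1.68-fold against negative 28.1-fold) in the authors' deposited table.

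The remaining genes with 3 or more features took similar forms. A stepped positive ratio stood beside small negative ones in the authors' deposited table for ZNF614 (positive 67-fold against negative 2.56-fold and 5.18-fold), ZNF234 (positive 36-fold against negative 3.36-fold and 5.11-fold) and ZNF865 (positive 16-fold against negative 2.61-fold and 2.5-fold). ZNF480 (positive 49-fold and 4.06-fold against negative 2.95-fold), ZNF615 (positive 176-fold and 6.01-fold against negative 9.06-fold) and ZNF460 (positive 94-fold and 4.35-fold against negative 4.46-fold) had 2 positive features and 1 negative in the authors' deposited table. ZNF814 (positive 8.82-fold and 4.96-fold against negative 4.18-fold) held no stepped ratio in the authors' deposited table. Stepped ratios of both signs were listed in the authors' deposited table for ZNF525 (positive 79-fold and 168-fold against negative 42-fold), ZNF766 (positive 85-fold and 3.69-fold against negative 40.5-fold) and ZNF773 (positive 117-fold against negative 201-fold and 3.09-fold). ZNF544 (positive 2.58-fold against negative 96-fold and 59.4-fold) was the gene of this form with its large ratios on the negative side in the authors' deposited table.

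No feature of these genes shared both its ratio and its p-value with another of them. Equal ratios alone occurred at 9 values, over 19 features, all positive and stepped. Examples in the authors' deposited table are ZNF284 and ZNF701 (positive 153-fold, with p = 2.26e-07 and p = 1.32e-06) and ZNF429, ZNF575 and ZNF418 (positive 89-fold). With listed features of other genes, 15 of the 250 shared both ratio and p-value. They include ZNF773 with FBN2, ADD3, CYTOR and LINC02245 (positive 117-fold, p = 0.00228) and ZNF430 with MAML3 (positive 245-fold, p = 0.0006) in the authors' deposited table. None of these partners is a ZNF gene of chromosome 19, though TICAM1, the partner of ZNF566, and TSHZ3, that of ZNF836, lie on that chromosome. In the whole table, 285 of 4616 features (chromosome Y left out) shared both values with another, and 281 of them were stepped.

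Overlap with features listed under other names touched 8 of the 250, in 10 pairs on the same strand, where reads of the genes cannot be told apart. The partners carry clone names, and 8 pairs had the same sign. ZNF284 (positive 153-fold) overlapped AC067968.1 (positive 151-fold) by 45 nt in the authors' deposited table, and ZNF700 (positive 160-fold) overlapped AC008770.2 (positive 177.5-fold) by 37 nt. The pairs of opposite sign were both of ZNF844, negative 11.6-fold according to the authors' deposited table, against AC008770.4 (positive 10.1-fold, 48 nt shared) and AC022415.3 (positive 32-fold, 2 nt shared). ZNF805 (positive 272-fold) and AC005261.3 (positive 6.31-fold) had the same sign and unlike sizes over 32 shared nt in the authors' deposited table. The readthrough gene ZNF816-ZNF321P (positive 159-fold), ZNF321P (positive 2.37-fold) and ZNF816 (negative 282-fold) share a locus and differ in sign or size in the authors' deposited table. Their features do not overlap and lie at chr19:52929148-52929197, chr19:52929277-52929375 and chr19:52949675-52949724 in the same order.

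The partners of KRAB proteins were listed in part. Of 30 co-repressor genes, 10 had a listed feature, beside 13.3% of all RefSeq protein-coding genes. Their features were 8 positive and 6 negative (57.1% positive, beside 56.3% of all listed features), and neither TRIM28 nor the DNA methyltransferase gene DNMT1 was among them. SETDB1 had a negative 2.01-fold feature and the nucleosome remodeller gene CHD4 a positive 60.5-fold one in the authors' deposited table. All 4 of the co-repressor genes with several features held both signs in the authors' deposited table: ATF7IP, a partner of SETDB1 (positive 179-fold, negative 25.5-fold), TASOR (positive 134-fold, negative 3.81-fold) and MORC2 (positive 50.3-fold, negative 3.59-fold) of the HUSH silencing pathway, and TRIM24 (positive 1.94-fold, negative 2.59-fold). Other zinc finger symbols of chromosome 19 added 7 features of 6 genes, 5 positive and 2 negative (71.4% positive, beside 56.3% of all listed features). In the authors' deposited table they were ZFP28 (positive 235-fold), ZFP82 (positive 86-fold), ZIK1 (positive 4.38-fold), ZFP36 (positive 3.04-fold), ZBTB7A (negative 2.65-fold and 2.29-fold) and MZF1-AS1 (positive 201-fold). MZF1-AS1 is by its name an antisense RNA gene. Of 8 markers of promyelocytic cells 1 was listed, and of 3 erythroid and 3 lymphoid markers 0 were. The table holds differences and no levels, so it does not show whether the cells express them.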

How the data were processed

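The libraries were immunoprecipitated from 2 µg of RNA with 5 µg of anti-m6A antibody and sequenced single-end at 50 bases, per the labels' protocols. Alignment used STAR 2.7.3a and hg38, per the submitters' processing notes. How features were called and scored, and whether p-values were adjusted, no source used here states. Natural log ratios and p-values make up the authors' deposited table. The log base was inferred, since 1415 ratios are multiples of 0.5 with the natural base and 0 with base 2. Its smallest absolute log ratio is 0.501 and its largest p-value 0.00455. The deposited values were exponentiated to fold ratios and described by counts and medians, with no test. The planned edgeR or limma fit was not made, as it needs values per library.

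Members and lists were chosen with earlier results of these data known. Named were genes with 3 or more features, the 8 largest leading ratios per sign, the 3 smallest leading p-values per segment and sign, pairs sharing ratio and p-value, and genes with both signs within 1000 nt. Some q arm genes of known function were added after their values were seen. Steps were tested on simulated data and run in Python 3.11.15 (matplotlib 3.10.9, numpy 2.4.6, pandas 2.3.3, scipy 1.17.1). RefSeq names and sequences are of GRCh38.p14.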

Additional observations from a re-analysis of the deposited data

How the results depend on the processing

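The positive share of features (58.4%) was 64.2% with p-values under 0.001, 58.2% inside RefSeq spans, 58.4% with repeated positions counted once and 59.1% without overlaps with other names, an alternative chosen after seeing the data. It turned to 36.0% without stepped ratios, where the share over all listed features turned from 56.3% to 45.3%. Of the 1415 stepped ratios in the whole table, 1151 were positive. Without ratios of a denominator up to 6 the share of the ZNF features was 36.5%. The share of genes (63.0%) was 67.4% with the largest ratio leading and turned to 36.3% without stepped ratios. No other alternative here was taken over all listed features or genes, so the other shifts cannot be called particular to the ZNF genes. Without stepped ratios the shares by segment moved to 33.3% in the distal p arm, 26.1% in the pericentromeric block and 38.6% in the q arm, and with the block set at 20 to 25 Mb they were 54.1%, 67.4% and 57.1%. The median positive ratio moved from 54-fold to 3.86-fold without stepped ratios, and the negative one from 4.34-fold to 3.58-fold. Genes with both signs fell from 39 to 17, with fewer features counted. Gaps of 2 Mb and 0.5 Mb gave 10 and 18 groups. The cause was not tested. No paired analysis was possible because the table holds no value per library, and for the same reason neither a replicate nor a library could be left out and no count fit was run. Depth is unknown, so its limits cannot be given.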
